A study of Mus musculus with 2 samples.

Results

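Matrix metalloproteinases and their inhibitors were followed across the cell classes of the mouse kidney on day 14 after ischemia. The 10 genes, Mmp2, Mmp7, Mmp9, Mmp12, Mmp14, Mmp19, Timp1, Timp2, Timp3 and Smoc2, are taken by symbol from 32285 genes in the files, and all 10 had unique molecular identifier (UMI) counts in both libraries. They were chosen on UMI sums by cell class in these same 2 libraries, including differences between the libraries, so the levels and differences of these genes are a description of how they were distributed and no test is attached to them. One single-cell library came from the injured kidney of a Cre- littermate, and the other from a mouse with Cdh5(PAC)-CreERT2 and homozygous floxed Phd1 (Phd1f/f), Phd2 (Phd2f/f) and Phd3 (Phd3f/f), called PHDTiEC, in which tamoxifen-activated Cre driven by the endothelial Cdh5 promoter deletes floxed alleles of the prolyl hydroxylases PHD1, PHD2 and PHD3. Mice of 8 to 10 weeks had 25 minutes of unilateral renal artery occlusion at 37 °C, and both genotypes received 4 tamoxifen doses of 3 mg from the day after injury.

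Matrix metalloproteinases are zinc-dependent endopeptidases that cleave collagens, elastin, cell surface proteins and one another. Most are secreted as inactive precursors, and tissue inhibitors of metalloproteinases (TIMPs) bind the active site of the mature enzyme. In the kidney, injured tubules, infiltrating myeloid cells and matrix-producing fibroblasts are known sources of these enzymes, and their balance with TIMPs is studied as a determinant of matrix turnover during repair and fibrosis. Smoc2 is no protease or inhibitor but a secreted calcium-binding protein of the SPARC family that sits in the extracellular matrix and has been linked to kidney fibrosis.

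After filtering, 8548 Cre- barcodes with a median of 7500 UMIs and 9309 PHDTiEC barcodes with a median of 7898 UMIs remained, and 28 barcode sequences occurred in both libraries. Clusters made without the 10 genes were named from marker genes, and 12 classes are described. Among the 10 genes with the largest fold were Slc34a1 in proximal tubule-like, Havcr1 and Vcam1 in injured proximal tubule-like, Slc12a1 and Umod in thick ascending limb-like, Slc12a3 in distal convoluted tubule-like, Aqp2 and Fxyd4 in collecting duct-like, Col1a1 and Dcn in fibroblast-like, Myh11 and Rgs5 in pericyte-like, and S100a8 and S100a9 in neutrophil-like barcodes. The class called inner medullary-like was led by Slc14a2 and Fst and named from a joint inner medullary and thin limb list. Its next best list was injured proximal tubule (mean log2 fold 1.19), so its place in the nephron is uncertain. A further class carried intercalated (Atp6v1g3, Foxi1) and principal cell (Aqp2, Hsd11b2) markers together at a median of 47922 and 52330 UMIs per barcode, and is called intercalated-like with collecting duct markers. Of its barcodes, 7.34% and 7.41% were among the highest Scrublet doublet scores, against 6.32% and 6.18% of all barcodes. With 1 library per genotype, genotype and animal cannot be told apart. Counting intervals (exact Poisson, or exact binomial on the split of UMIs) cover counting error only, and levels are given in CPM, the gene's share of all UMIs of the class on the usual CPM scale, with differences as log2 of PHDTiEC over Cre- CPM.

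Endothelial-like barcodes gave the check on the labels. Egln1, which encodes PHD2, stood at 67.6 CPM in the Cre- library and 203 CPM in the other (log2 1.59, 95% interval 1.36 to 1.82), Egln3, which encodes PHD3, at 25.9 and 161 CPM (2.64, 2.29 to 3.01), and Egln2, which encodes PHD1, at 44.1 and 39.1 CPM (-0.17, -0.53 to 0.18). Egln1 and Egln3 were thus higher in the library whose label gives their deletion, the interval of Egln2 included 0, and 3' UMIs do not show whether the floxed exons were present. The second sample is called the library labelled PHDTiEC.

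The genes differed in the class with the highest level. In the dot plot of levels, Mmp9 was highest in neutrophil-like, Mmp12 in macrophage-like, Mmp7 in thick ascending limb-like, Timp1, Mmp2 and Smoc2 in fibroblast-like, and Timp3 in endothelial-like barcodes among the 12 classes, whereas Mmp14 and Timp2 were spread over stromal, myeloid and tubular classes. B-like barcodes, taken as a class that should lack these genes, held 0 to 5 UMIs of any of the 10 genes among 70 Cre- barcodes (median depth 2009 UMIs) and 0 to 3 among 49 in the library labelled PHDTiEC (median depth 2438 UMIs), or at most 7.14% and 6.12% of barcodes with a UMI.

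**Figure D1:**
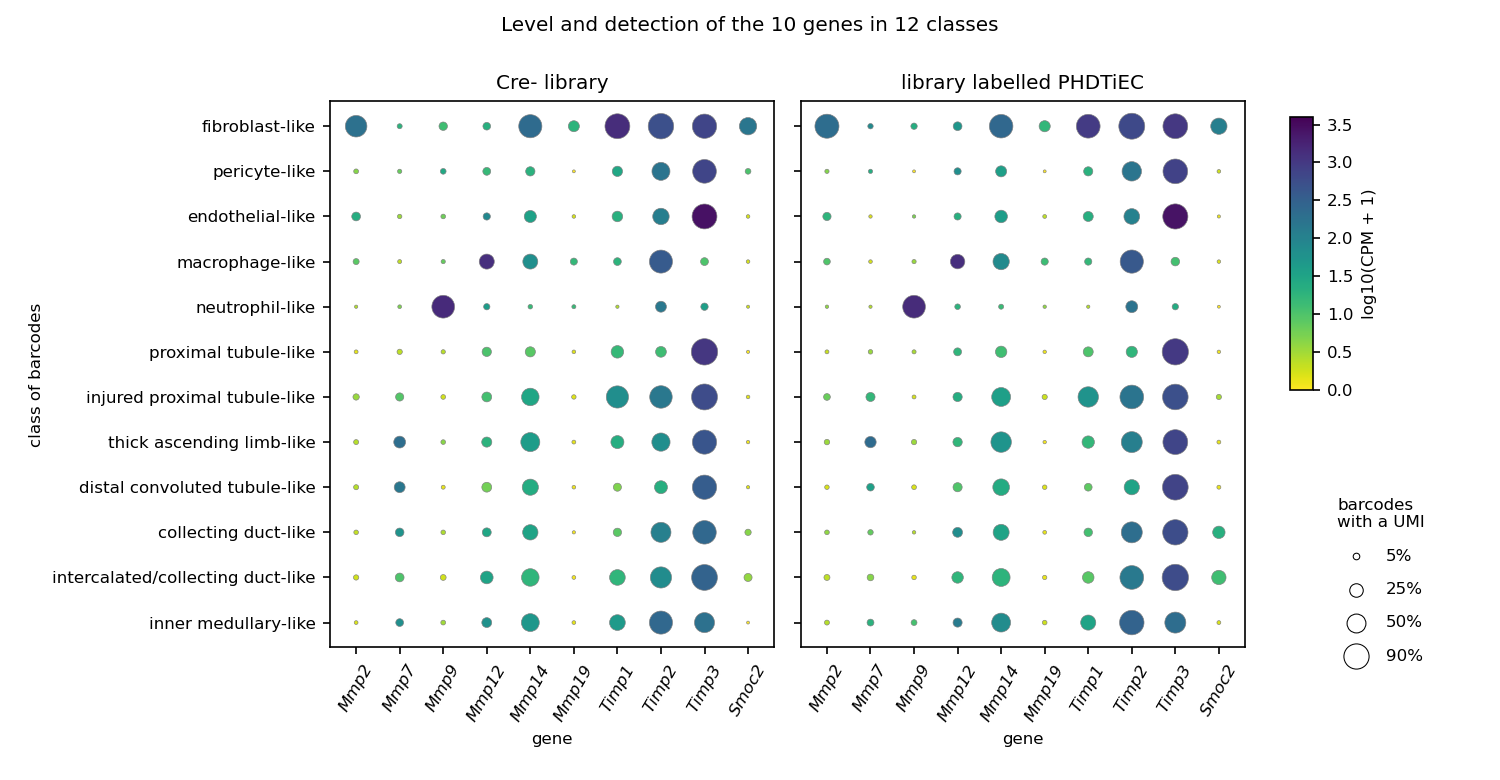
Dot plot of the 10 genes (x axis) in 12 classes of barcodes (y axis), with the Cre- library on the left and the library labelled PHDTiEC on the right. Color gives log10(CPM + 1) of the class total and dot size the percentage of barcodes with at least 1 UMI, so that Mmp9 shows as 1 large dark dot in neutrophil-like barcodes and Timp3 as large dots across the tubular, stromal and endothelial rows.

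The genes lie on mouse build GRCm38 (the same assembly as mm10, which the submitters used) as follows. Mmp7 and Mmp12 are on chromosome 9 (chr9:7692090-7699585 and chr9:7344381-7369499, both on the plus strand), in a cluster of metalloproteinase genes, and Mmp12 overlaps Mmp1b on the opposite strand, for which the 12 described classes held 0 and 1 UMI. Timp1 (chrX:20870166-20874735) and Timp3 (chr10:86300372-86349506) lie within the span of the synapsin genes Syn1 and Syn3 on the opposite strand. Timp2 (chr11:118301069-118355740, minus strand) overlaps Cep295nl on the same strand. Only whole gene spans were compared, so whether these genes share exons, and any effect on the Timp2 counts, was not tested.

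Promoter sequence is shown for Mmp7, Timp1 and Timp3, the genes with RefSeq windows whose tubular and fibroblast-like values are described at most length, to show what stands before their first exons. Each line gives the bases before the annotated gene start, 5' to 3' on the gene's strand, from RefSeq on GRCm38.p6. Capitals mark the AP-1 motif TGANTCA or the hypoxia response element core ACGTG or GCGTG on either strand.
Mmp7 (chr9:7691840-7692089, plus strand): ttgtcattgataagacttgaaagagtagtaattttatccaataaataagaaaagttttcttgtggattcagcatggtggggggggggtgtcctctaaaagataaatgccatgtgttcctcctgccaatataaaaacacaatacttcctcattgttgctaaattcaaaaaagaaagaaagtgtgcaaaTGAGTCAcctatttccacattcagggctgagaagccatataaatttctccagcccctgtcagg
Timp1 (chrX:20869916-20870165, plus strand): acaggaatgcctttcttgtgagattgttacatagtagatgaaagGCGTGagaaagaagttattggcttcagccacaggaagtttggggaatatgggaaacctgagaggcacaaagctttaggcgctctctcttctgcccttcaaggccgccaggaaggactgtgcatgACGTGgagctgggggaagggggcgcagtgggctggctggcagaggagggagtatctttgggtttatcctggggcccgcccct
Timp3 (chr10:86300162-86300371, plus strand): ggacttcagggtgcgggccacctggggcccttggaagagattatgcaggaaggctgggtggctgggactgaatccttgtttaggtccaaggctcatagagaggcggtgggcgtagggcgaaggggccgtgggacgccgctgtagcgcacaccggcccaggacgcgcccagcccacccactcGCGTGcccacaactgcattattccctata
The Mmp7 window shown holds a single AP-1 match and no hypoxia core, while the window of a second RefSeq start of Mmp7, which lies inside the annotated gene and is not shown, holds 3 hypoxia core matches, of which 2 overlap, and no AP-1. Timp1 holds 2 hypoxia cores and Timp3 holds 1. Among 32851 RefSeq windows of 250 bases, 6.75% held the AP-1 motif and 38.6% held a hypoxia core. RefSeq windows were found for 6 of the 10 genes, in 8 windows, of which 2 held AP-1 and 5 a hypoxia core. These are letter matches and do not show a bound site.

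Among 79 of 120 gene and class pairs that reached 50 UMIs over both libraries, 13 were 2-fold or more higher and 8 were 2-fold or more lower in the library labelled PHDTiEC. Since differences between these libraries were among the values that chose the genes, the following shares serve as context only, each set beside the percentage of all genes with 50 UMIs that passed the same fold in either direction. In collecting duct-like barcodes 4 of 7 measured genes passed against 1.78% of all genes, and in intercalated-like barcodes with collecting duct markers 4 of 7 against 1.3%. The count was 3 of 7 against 0.804% in inner medullary-like (1 of them left without the top barcode of each library), 2 of 6 against 1.78% in distal convoluted tubule-like, 2 of 7 against 2.06% in injured proximal tubule-like and 2 of 10 against 2.52% in fibroblast-like barcodes. The fibroblast-like calls, for Mmp7 and Mmp12, changed sign with the highest doublet scores left out (-4.36 and -0.16). So did the Mmp12 call in injured proximal tubule-like barcodes (-1.74), where 1 barcode of the library labelled PHDTiEC held 111 of 186 UMIs. One of 4 passed in pericyte-like (5.51% of all genes), 1 of 6 in endothelial-like (3.06%), 1 of 8 in macrophage-like (0.894%) and 1 of 4 in neutrophil-like barcodes (0.94%). The pericyte-like, endothelial-like and neutrophil-like calls were all for Mmp12, and none was left without the top barcode of each library or without the highest doublet scores. In neutrophil-like barcodes it was at 50 and 25 UMIs (-1.13), with 20 of the 50 in 1 barcode, and the call was also lost by marker score, by mean per barcode and after subtraction of free RNA. None of 5 passed in proximal tubule-like (1.45%) and none of 8 in thick ascending limb-like barcodes (1.63%). The median log2 ratio of all measured genes lay between -0.00345 and 0.113 in these classes, at 0.11 in distal convoluted tubule-like and pericyte-like barcodes, so small differences there are relative to that shift.

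**Figure D2:**
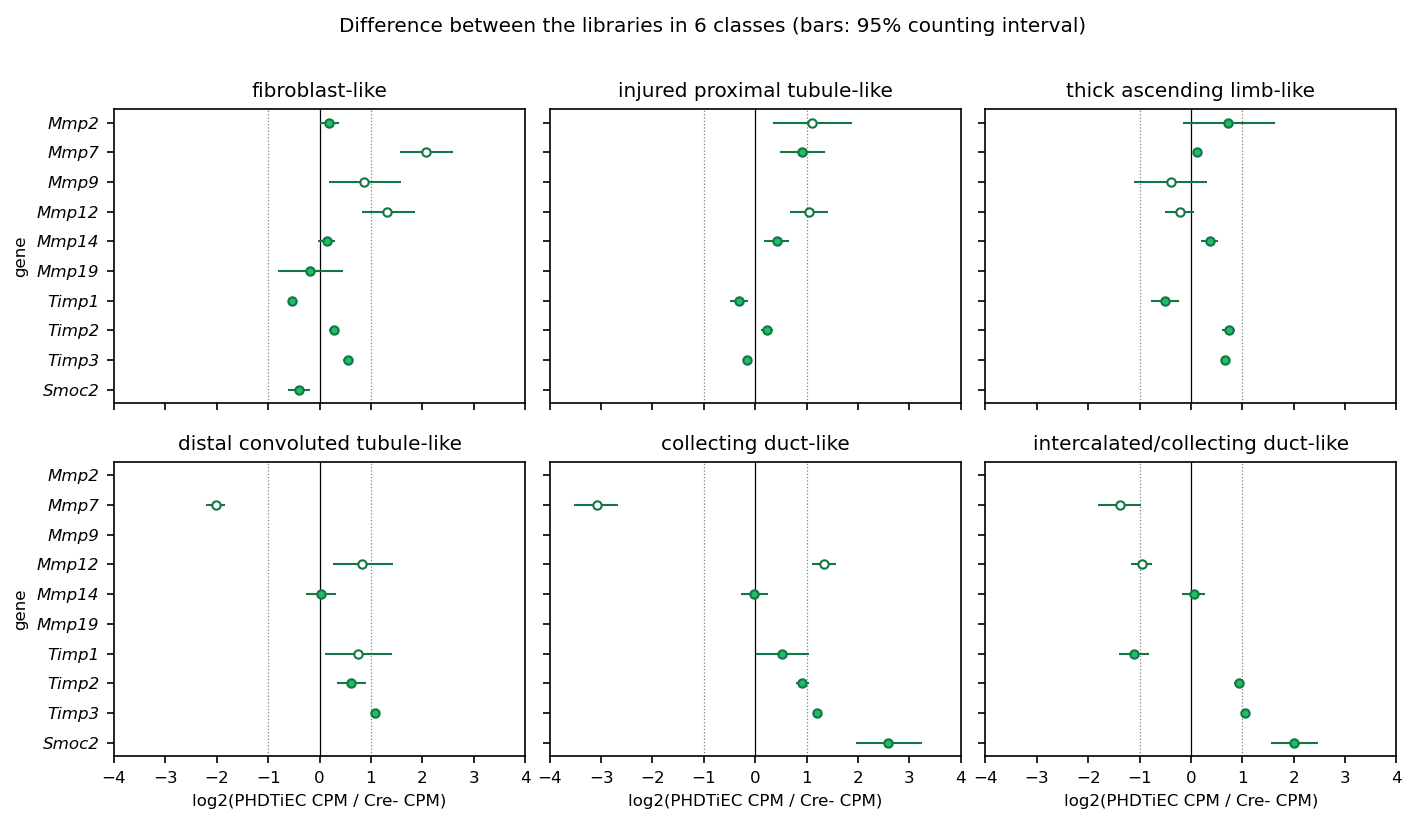
Log2 ratio of CPM in the library labelled PHDTiEC over CPM in the Cre- library (x axis) for each gene with at least 50 UMIs (y axis) in 6 classes. Bars are 95% counting intervals, dotted lines mark 2-fold, and open circles are genes for which 1 barcode held over 25% of the class UMIs in either library. Mmp7 lies left of the lower dotted line in all 3 classes of the lower row, where Timp3 lies right of the upper one.

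Mmp7, matrilysin, a small secreted enzyme made by epithelia, had its highest level in thick ascending limb-like barcodes of both libraries. Most Mmp7 UMIs of that class lay in barcodes with low levels of the class markers Umod and Slc12a1, as given below, so the class name is uncertain for them. Thick ascending limb-like barcodes held 2514 Cre- and 2945 PHDTiEC-labelled UMIs (208 and 225 CPM, log2 0.11, 0.03 to 0.19), and with classes taken from marker scores the log2 ratio there was -0.78 and by mean per barcode 0.82. In distal convoluted tubule-like barcodes it stood at 1159 and 321 UMIs (146 and 35.98 CPM, -2.02, -2.20 to -1.84). Collecting duct-like barcodes held 394 and 52 UMIs (54.5 and 6.42 CPM, -3.09, -3.53 to -2.67). That class was not a cluster of its own with 30 principal components in place of 20, and its values rest on the clustering used here and on marker scores, by which Mmp7 was at -2.32. The direction in thick ascending limb-like barcodes thus depended on the setting, while the 2 more distal classes were lower in the library labelled PHDTiEC. Inner medullary-like barcodes (322 and 87 UMIs, log2 -1.76) and intercalated-like barcodes with collecting duct markers (156 and 69 UMIs, -1.39) were lower as well, while injured proximal tubule-like barcodes held 73 and 131 UMIs (0.91, 0.49 to 1.35). Fibroblast-like barcodes held 36 and 324 Mmp7 UMIs (2.07, 1.57 to 2.61), of which single barcodes gave 33 and 219, and with the highest doublet scores left out the log2 ratio was -4.36. The thick ascending limb-like share of all Mmp7 UMIs was 49.8% in the Cre- library and 71.5% in the other. Across all kept barcodes Mmp7 was at 42.7 and 31.1 CPM (-0.46, -0.52 to -0.40).

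Few barcodes carried this transcript, and each carried many copies. Of 422 and 423 thick ascending limb-like barcodes, 80 and 73 had an Mmp7 UMI (18.96% and 17.3%), and the 40 and 44 with at least 10 UMIs held 96.7% and 97.1% of the class total. In distal convoluted tubule-like barcodes 45 of 283 and 21 of 295 had a UMI (15.9% and 7.12%), and in collecting duct-like barcodes 31 of 331 and 11 of 359 (9.37% and 3.06%). After thinning every barcode to 2000 UMIs, which left out at most 4 barcodes of a class and library, these shares were 9.98% and 11.2% in thick ascending limb-like, 7.83% and 2.75% in distal convoluted tubule-like and 3.34% and 0.280% in collecting duct-like barcodes. Of all Mmp7 UMIs, 50% lay in 20 of 8548 Cre- barcodes and in 11 of 9309 barcodes of the library labelled PHDTiEC. In collecting duct-like barcodes of the latter a single barcode held 33 of 52 UMIs, and without the top barcode of each library the log2 ratio was -4.24.

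**Figure D3:**
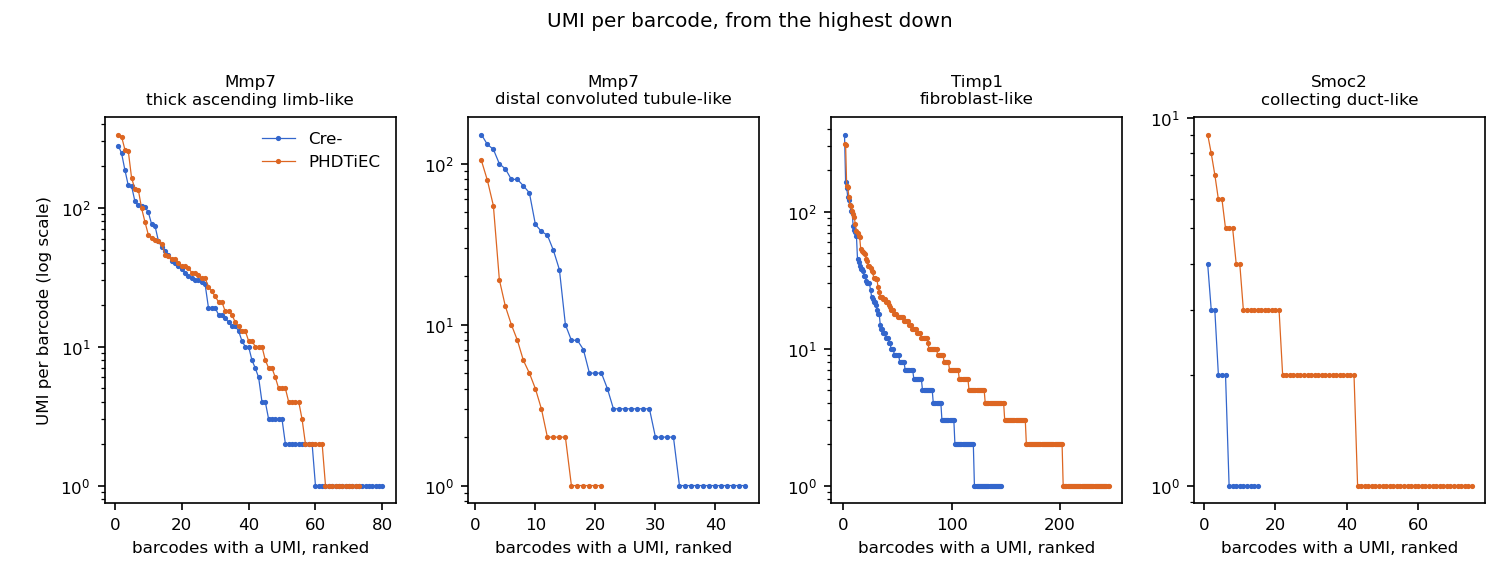
UMIs per barcode (y axis, log scale) for barcodes with at least 1 UMI, ranked from the highest (x axis), in the Cre- library (blue) and the library labelled PHDTiEC (orange), for 4 gene and class pairs. For Mmp7 the curves overlap in thick ascending limb-like barcodes and the Cre- curve lies above in distal convoluted tubule-like barcodes, and for Smoc2 in collecting duct-like barcodes 75 barcodes of the library labelled PHDTiEC stand against 15.

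Thick ascending limb-like barcodes with at least 10 Mmp7 UMIs differed from the rest of the class in the genes that define it. Umod, which encodes uromodulin, was at 2481 CPM in the 40 Cre- barcodes against 11139 CPM in the others, and at 1657 against 8817 CPM in the 44 barcodes of the library labelled PHDTiEC. Slc12a1, the apical Na-K-2Cl cotransporter, was at 134 against 2293 CPM and at 247 against 2818 CPM. The genes with the largest ratio in both libraries, chosen after their values were seen, included the chemokine Cxcl5 (238 against 13.6 CPM, and 496 against 11.9 CPM), the complement component C3 (562 against 45.5 CPM, and 504 against 34.9 CPM), ceruloplasmin, Cp (275 against 22.3 CPM, and 395 against 35.4 CPM), and the adhesion molecule Vcam1 (195 against 14.1 CPM, and 177 against 19.01 CPM). The median depth of the barcodes with 10 Mmp7 UMIs was 48942 against 17604 UMIs for Cre- and 24699 against 25224 UMIs in the other, so the depth gap was present in the Cre- library alone. C3, Cp and Vcam1 were also among the 10 genes with the largest fold in injured proximal tubule-like barcodes. The class name is therefore uncertain for the barcodes with at least 10 Mmp7 UMIs. These barcodes were picked by their Mmp7 counts, and the comparison is a description.

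Mmp12, macrophage elastase, had nearly equal class totals in macrophage-like barcodes of both libraries, with 26952 UMIs in 2250 Cre- barcodes and 31825 UMIs in 2509 barcodes of the library labelled PHDTiEC, 1322 CPM in each (95% interval of the log2 ratio -0.02 to 0.02). Almost all of it came from 1 of the 3 macrophage-like clusters, led by Retnla, Gpnmb, Arg1 and Trem2, which held 78.1% and 76.4% of all Mmp12 UMIs at 2649.7 and 2499 CPM. There 72.8% and 65.2% of barcodes had a UMI, against 16.1% and 12.3% in the larger cluster led by Ccl8 and Mrc1, at 111 and 81.8 CPM. The level was lower in both clusters in the library labelled PHDTiEC (-0.08, -0.11 to -0.06, and -0.45, -0.57 to -0.32), in which the Mmp12-rich cluster was 791 of 2509 macrophage-like barcodes against 610 of 2250. Cycling barcodes with macrophage markers were at 902 and 1547 CPM (2920 and 4802 UMIs, log2 0.78, 0.71 to 0.84). The top 3 barcodes held 322, 221 and 194 Cre- UMIs, against 780, 593 and 586 in the library labelled PHDTiEC. A UMI was found in 85 of 186 and 79 of 157 barcodes, and after thinning in 33.1% of 172 and 36.4% of 143. The class was not recomputed under the alternative settings, so the part of the top 3 barcodes in the difference was not tested. Dendritic-like barcodes were at 139 and 227 CPM (0.71, 0.50 to 0.91).

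In several classes outside the myeloid lineage single barcodes held much of the Mmp12. In endothelial-like barcodes the class sums were 236 and 77 UMIs (-2.04), of which 1 Cre- barcode gave 215, and without the top barcode of each library the log2 ratio was 0.98. In pericyte-like barcodes they were 12 and 74 (2.22), with 54 in 1 barcode, in fibroblast-like 39 and 209 (1.32), with 74 in 1 barcode, and in collecting duct-like 203 and 573 (1.33), with 147 and 175 in 1 barcode of each library. The top barcodes of the pericyte-like, collecting duct-like and endothelial-like classes were among the 6% of barcodes with the highest Scrublet doublet scores. Of the 21 pairs past 2-fold, 7 were for Mmp12 in classes other than macrophage-like.

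Mmp9, gelatinase B, stored in neutrophil granules, was a neutrophil transcript in these libraries. Neutrophil-like barcodes held 1828 and 1948 UMIs (1481 and 1443 CPM, log2 -0.04, -0.13 to 0.06), or 76.9% and 79.3% of all Mmp9 UMIs, and 458 of 625 and 483 of 661 barcodes had a UMI (73.3% and 73.1%) at median depths of 1773 and 1770 UMIs. No barcode held more than 21 UMIs, so the signal was spread over the class, unlike Mmp7. Monocyte-like barcodes were at 124 and 93.2 CPM (-0.41, -0.81 to -0.03). In macrophage-like barcodes 124 and 63 UMIs were found (-1.22, -1.68 to -0.77) in 30 and 34 barcodes, with 34 and 13 UMIs in the top one, and by marker score the log2 ratio was 0.072. The inner medullary-like sums of 11 and 48 UMIs (2.25) included 20 from a single barcode.

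Mmp19, a secreted enzyme of low abundance here with 430 and 487 UMIs in all, came mainly from the same macrophage-like cluster as Mmp12, which held 60.5% and 53.4% of its UMIs at 26.7 and 21.04 CPM. In macrophage-like barcodes as a class it was at 14.9 and 12.7 CPM (-0.23, -0.46 to 0.01), and in fibroblast-like at 17.5 and 15.3 CPM (-0.19, -0.81 to 0.45). Monocyte-like barcodes held 21 and 40 UMIs (15.9 and 42.8 CPM, 1.43, 0.63 to 2.27) in 12 of 238 and 21 of 159 barcodes.

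Mmp2, gelatinase A, and Mmp14, the membrane-bound enzyme that activates the Mmp2 precursor, were both highest in fibroblast-like barcodes. Mmp2 held 364 and 893 UMIs there (187 and 213 CPM, log2 0.19, 0.01 to 0.37), in 65.7% and 82.0% of 166 and 306 barcodes. An unnamed cluster led by Igfbp2, Stc2 and Foxd1 among others followed at 144 and 137 CPM (-0.07, -0.25 to 0.11). Mmp14 held 444 and 1049 UMIs in fibroblast-like barcodes (228 and 251 CPM, 0.14, -0.02 to 0.30). Mmp2 passed 2-fold in injured proximal tubule-like barcodes, at 23 and 47 UMIs (1.102), with 46.8% of the 47 UMIs in 2 barcodes. Mmp14 passed it in none of the 11 classes with 50 UMIs. For Mmp14 the interval lay above 0 in 6 of 11 measured classes and below 0 in none, with log2 0.24 in macrophage-like (65.1 and 77.1 CPM), 0.37 in thick ascending limb-like and 0.56 in inner medullary-like barcodes. These classes share the same 2 libraries, and the matching count over all genes was not computed.

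Fibroblast-like barcodes were 1.94% of the Cre- and 3.29% of the PHDTiEC barcodes, and fewer cells of a type and less RNA per cell cannot be told apart in whole-library levels. Mmp2 was at 10.5 and 15.3 CPM in all kept barcodes (0.54). With Cre- levels kept within each class and the class totals of the other library, it would have been at 13.7 CPM, or 0.37 of that 0.54 on the log2 scale. For Smoc2, at 3.57 and 7.12 CPM (1.00), the same calculation gave 5.91 CPM, or 0.73. Timp1 was at 45.8 and 47.0 CPM overall (0.04), where class totals alone gave 65.2 CPM (0.51), leaving -0.47 to lower levels within classes. For Timp3 and Timp2 the class totals gave 0.07 each, of overall differences of 0.39 and 0.31.

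**Figure D4:**
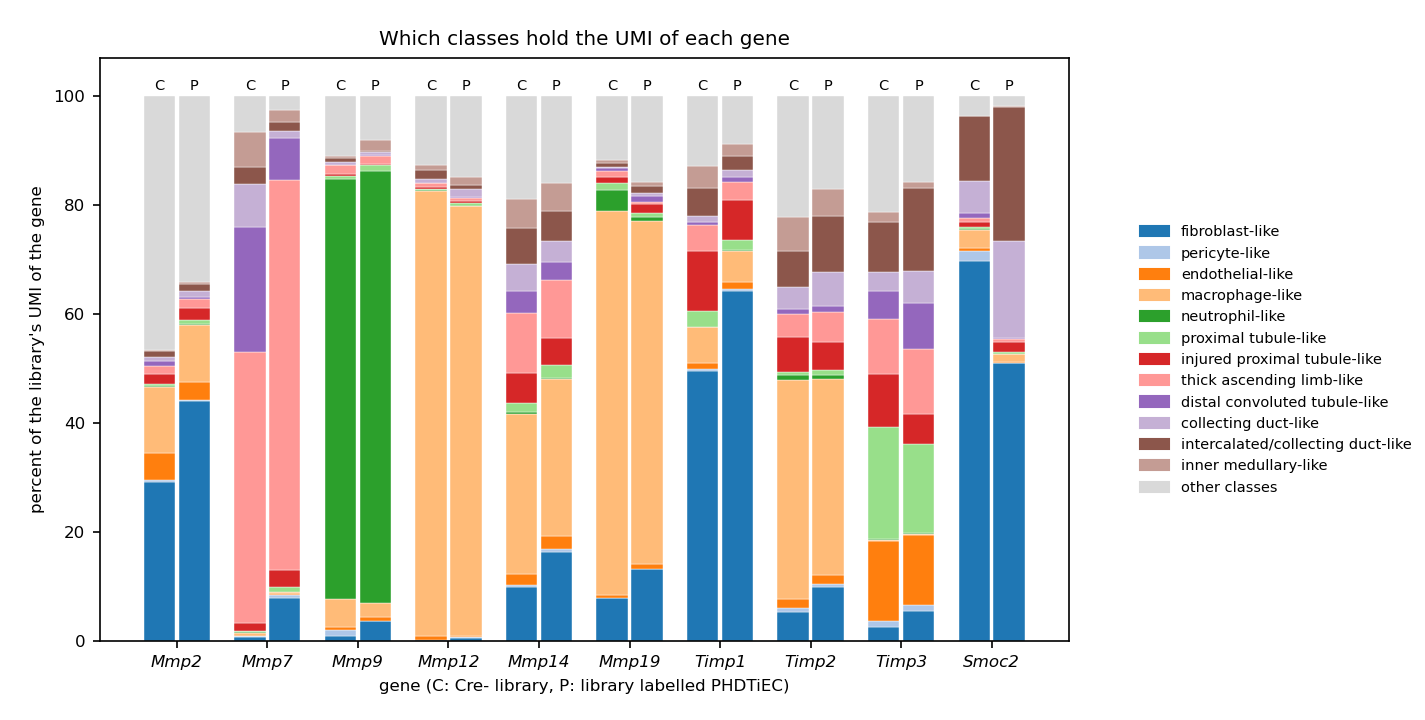
Percentage of each library's UMIs of a gene (y axis) that came from each of 12 classes and from all other classes (colors), with the Cre- library (C) beside the library labelled PHDTiEC (P) for each gene (x axis). Fibroblast-like barcodes gave 29.2% and 44.0% of Mmp2, and the collecting duct-like and intercalated-like classes together gave a larger part of Smoc2 in the library labelled PHDTiEC.

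Timp1, the inducible inhibitor of the family, was lower in the library labelled PHDTiEC in most classes. Fibroblast-like barcodes held 2682 Cre- and 3999 PHDTiEC-labelled UMIs (1377 and 956 CPM, log2 -0.53, -0.60 to -0.46). In injured proximal tubule-like barcodes the level was 67.7 and 54.6 CPM (-0.31, -0.49 to -0.13), and 69.7% and 58.7% of barcodes had a UMI, while by marker score the log2 ratio was 0.12. Intercalated-like barcodes with collecting duct markers were at 16.3 and 7.58 CPM (-1.11, -1.40 to -0.82), the largest difference for this gene among the 10 classes with 50 UMIs. Proximal tubule-like (-0.68), thick ascending limb-like (-0.50), inner medullary-like (-0.50) and macrophage-like barcodes (-0.25) were lower too, so the interval lay below 0 in 7 classes. It lay above 0 in collecting duct-like (54 and 87 UMIs, 0.52) and distal convoluted tubule-like barcodes (32 and 60 UMIs, 0.74), the latter with 26 of 60 UMIs in 1 barcode, and by marker score the collecting duct-like log2 ratio was -0.32. Since the classes share the same 2 libraries, they do not repeat one another's result independently. Matching counts over all genes were not computed.

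Within fibroblast-like barcodes Timp1 was uneven. Of its UMIs, 50% lay in 10 of 166 Cre- barcodes and 17 of 306 barcodes of the other library, and the single top barcodes held 366 and 310 UMIs (13.6% and 7.75%). After thinning to 2000 UMIs, 60.1% of 153 and 44.6% of 289 barcodes had a Timp1 UMI, against 88.0% and 80.1% before. Barcodes with at least 10 Timp1 UMIs, 46 and 86 in number, had less Smoc2 than the rest of the class, at 70.9 against 206 CPM in the Cre- library and 28.4 against 187 CPM in the other. Col1a1, the main fibrillar collagen chain of fibroblasts, was at 5016 against 4388 CPM and 4399 against 4202 CPM in the same barcodes. The chemokine Cxcl14 (1125 against 327 CPM, and 1044 against 327 CPM) and the proteoglycan Cspg4 (104 against 33.7 CPM, and 105 against 32.8 CPM), chosen after their values were seen, led the genes that were higher with Timp1 in both libraries. Median depths of these barcodes were 14275 and 16076 UMIs against 8971 and 8847 UMIs, and the part of depth in these differences was not tested.

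Timp3, the inhibitor that binds to the extracellular matrix, had its highest levels in classes with endothelial markers. Endothelial-like barcodes held 7854 and 10139 UMIs (2751 and 2643 CPM, log2 -0.06, -0.10 to -0.02). An unnamed cluster with endothelial and mural markers was at 3230 and 3582 CPM (0.15). Of the endothelial-like clusters, the one led by Igfbp3 and Sox17 stood at 3810 and 3362 CPM (-0.18, -0.23 to -0.13), and the one led by Plvap and Gpihbp1 at 996 and 1138 CPM (0.19, 0.08 to 0.31). Proximal tubule-like barcodes were at 1080 and 991 CPM (-0.12, -0.16 to -0.09).

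In some distal classes the libraries were apart for Timp3. Distal convoluted tubule-like barcodes held 2849 and 6738 UMIs (359 and 755 CPM, 1.07, 1.01 to 1.14), collecting duct-like barcodes 1822 and 4719 UMIs (252 and 582 CPM, 1.21, 1.13 to 1.29), and intercalated-like barcodes with collecting duct markers 5064 and 12080 UMIs (292 and 603 CPM, 1.04, 1.00 to 1.09). All 3 were higher in the library labelled PHDTiEC, with no barcode above 7.55% of its class total. The distal convoluted tubule-like value was under 2-fold with TMM (0.98), without mitochondrial and ribosomal genes (0.97) and by mean per barcode (0.91), and the intercalated-like one was 0.992 and 0.986 in the last 2 of these. Thick ascending limb-like (452 and 719 CPM, 0.67) and fibroblast-like barcodes (719 and 1051.5 CPM, 0.55) were higher by less than 2-fold. Inner medullary-like barcodes were at a log2 ratio of 0.21 (0.08 to 0.34). By comparison, injured proximal tubule-like barcodes were at 590 and 525 CPM (-0.17, -0.23 to -0.11). In a separate intercalated-like class, 16.2% of 167 and 18.4% of 98 barcodes had a Timp3 UMI after thinning. After thinning, 31.3% of 329 and 58.3% of 357 collecting duct-like barcodes, and 33.5% of 281 and 59.8% of 291 distal convoluted tubule-like barcodes, had a Timp3 UMI, with B-like shares of 2.86% and 5.13%.

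Timp2, a constitutive inhibitor that also takes part in the activation of the Mmp2 precursor by Mmp14, followed Timp3 in the collecting duct but had other main sources. Macrophage-like barcodes held 40.1% and 35.98% of its UMIs at 380.5 and 401 CPM (0.07, 0.03 to 0.12). The unnamed cluster with Igfbp2 and Foxd1 was at 708 and 664 CPM (-0.09), and fibroblast-like barcodes at 520.2 and 632 CPM (0.28, 0.18 to 0.39). Collecting duct-like barcodes held 794 and 1682 UMIs (109.8 and 208 CPM, 0.92, 0.80 to 1.04), intercalated-like barcodes with collecting duct markers 1249 and 2745 UMIs (72.0 and 137 CPM, 0.93, 0.83 to 1.02) and thick ascending limb-like barcodes 820 and 1480 UMIs (67.9 and 113 CPM, 0.73, 0.61 to 0.86). The interval lay above 0 in 9 of 12 classes and below 0 in none of them. All classes come from the same 2 libraries, so they are not independent. The matching count over all genes was not computed, and no result about Timp2 is read from this one.

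Smoc2 was largely a fibroblast transcript in the Cre- library, where fibroblast-like barcodes gave 69.7% of its 422 UMIs, and less so in the other, where they gave 51.0% of 944. The fibroblast-like level was 151 and 115 CPM (294 and 481 UMIs, log2 -0.39, -0.61 to -0.18), in 42.2% and 36.9% of barcodes. Collecting duct-like barcodes held 25 and 167 UMIs (3.46 and 20.6 CPM, 2.57, 1.96 to 3.24) and intercalated-like barcodes with collecting duct markers 50 and 232 UMIs (2.88 and 11.6 CPM, 2.00, 1.56 to 2.48). In these 2 classes 15 of 331 and 75 of 359 barcodes, and 29 of 354 and 115 of 405 barcodes, had a UMI, and no collecting duct-like barcode held more than 4 and 9 UMIs, so the difference did not rest on a few barcodes. Thinned to 2000 UMIs, 2 of 329 and 9 of 357 collecting duct-like barcodes kept a Smoc2 UMI, a level near that of 1 UMI from which no change is read. B-like barcodes held 0 Smoc2 UMIs in both libraries, and macrophage-like barcodes 14 in each.

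Profiles of the 10 genes over 22 classes in each of the libraries were compared in pairs (44 points that share libraries and classes, Pearson correlation of log2(CPM + 1), given as a description). Mmp14 and Timp2 had the highest correlation among the 10 genes (r = 0.80), followed by Mmp14 and Mmp2 (0.76), Mmp2 and Timp2 (0.75) and Mmp14 and Timp1 (0.72), while Mmp12 and Timp3 had the lowest (-0.64). Among 15780 genes the profiles most like Mmp2 were those of Tcf21, Bgn and Col1a2 (0.89, 0.88 and 0.87), like Smoc2 those of Postn, Srpx and Dpt (0.86, 0.82 and 0.79), like Mmp12 those of Cd36, Trem2 and Ctss (0.89, 0.87 and 0.86), and like Mmp9 those of Nlrp12, H2-Q10 and Stfa2l1 (each 0.87). For Timp3 they were Zcchc14, Wwtr1 and Pcdh1 (0.96, 0.94 and 0.94), for Mmp7 Wnt10a, Susd4 and Gabrp (0.82, 0.81 and 0.81), for Timp1 Selenof, Scarf2 and Lgi2 (0.85, 0.82 and 0.81), for Timp2 Ahnak2, Mmp14 and Fblim1 (0.87, 0.80 and 0.77), for Mmp14 Ahnak2, Itgb5 and Timp2 (0.87, 0.82 and 0.80), and for Mmp19 Gas7, Brk1 and Bach1 (0.84, 0.83 and 0.82).

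Other genes of the system were read from lists that were chosen with earlier results of these data known. Of 16 other matrix metalloproteinases in the files, 28 gene and class pairs reached 50 UMIs. Of these pairs 7.14% passed 2-fold, where the share over all genes was 0.804% to 5.51% by class. The passing pairs were 1 higher (Mmp11 in injured proximal tubule-like barcodes, 26 and 54 UMIs, 1.13, named after its values were seen) and 1 lower. The latter was Mmp13, collagenase 3, at 15.7 and 6.94 CPM in macrophage-like barcodes (320 and 167 UMIs, -1.18, -1.46 to -0.90), where single barcodes held 28.8% and 17.96% of the UMIs. Mmp25 was next, at 73 and 52 UMIs in macrophage-like barcodes (-0.73), and among genes with 100 UMIs in the class the largest ratios upward were those of the membrane-bound Mmp15, at 19.3 and 31.0 CPM in intercalated-like barcodes with collecting duct markers (0.69) and 8.11 and 11.97 CPM in thick ascending limb-like barcodes (0.56). Among 3 other inhibitors, 2 pairs were measured and none passed 2-fold. Reck, a membrane-anchored inhibitor, was at 19.3 and 25.0 CPM in endothelial-like barcodes (0.38, -0.12 to 0.88).

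Activators, partners and clearance receptors gave 125 measured pairs, 6 higher and 3 lower by 2-fold (7.2%). The share over all genes was 0.804% to 5.51% by class. Lcn2, which binds Mmp9, was at 312 and 63.3 CPM in endothelial-like barcodes (-2.30, -2.51 to -2.09). Over all kept barcodes Lcn2 was at 1369 and 1197 CPM, with its highest level in collecting duct-like barcodes. Its endothelial-like UMIs came from 73 and 74 barcodes, with 16.6% and 12.8% in the top one. The part of free RNA or doublets in these UMIs was not tested. Serpine2, a secreted serine protease inhibitor, stood at 15.8 and 6.63 CPM in thick ascending limb-like (-1.25) and at 2.90 and 9.99 CPM in collecting duct-like barcodes (1.78), the latter with 41.98% of its UMIs in 1 barcode. The adamalysins, relatives that include sheddases and aggrecanases, gave 100 measured pairs, 3 higher and 1 lower (4%, against 0.804% to 5.51% by class over all genes). Of these calls, 2 were Adamts4 at 11 and 39 UMIs in proximal tubule-like (1.48) and 41 and 16 UMIs in thick ascending limb-like barcodes (-1.48), named after their values were seen. Adam8 was at 8.85 and 26.03 CPM in collecting duct-like barcodes (1.56, 1.15 to 1.98) and Adam10 at 34.6 and 70.2 CPM in pericyte-like (1.02), while Adamts9 was at 18.2 and 9.86 CPM in distal convoluted tubule-like (-0.89) and Adamts4 at 87.8 and 51.6 CPM in fibroblast-like barcodes (-0.77).

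The SPARC family relatives of Smoc2 gave 40 measured pairs, 6 higher and 3 lower by 2-fold, or 22.5% of them, where the share over all genes was 0.804% to 5.51% by class. Most of these calls were of 1 gene, Sparcl1, so the share does not describe the list as a whole. Sparcl1 was called higher in endothelial-like, macrophage-like, proximal tubule-like, injured proximal tubule-like and collecting duct-like barcodes and lower in thick ascending limb-like ones. Sparcl1, an anti-adhesive matrix protein, was at 339 and 884 CPM in endothelial-like barcodes (968 and 3391 UMIs, 1.38, 1.28 to 1.49), but at 30.4 and 15.1 CPM in thick ascending limb-like barcodes (-1.01). In proximal tubule-like barcodes it was at 2.51 and 6.59 CPM (26 and 87 UMIs, 1.39), with 32.2% of the 87 UMIs in 1 barcode. Over all kept barcodes Sparcl1 was at 85.8 and 131 CPM. Spock3 was at 5.94 and 3.34 CPM in intercalated-like barcodes with collecting duct markers (-0.83), the class in which Smoc2 was higher. Over the 12 classes the median log2 ratio of measured pairs was 0.02 for other metalloproteinases, 0.03 for activators and partners, 0.05 for adamalysins and 0.11 for SPARC relatives.

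**Figure D5:**
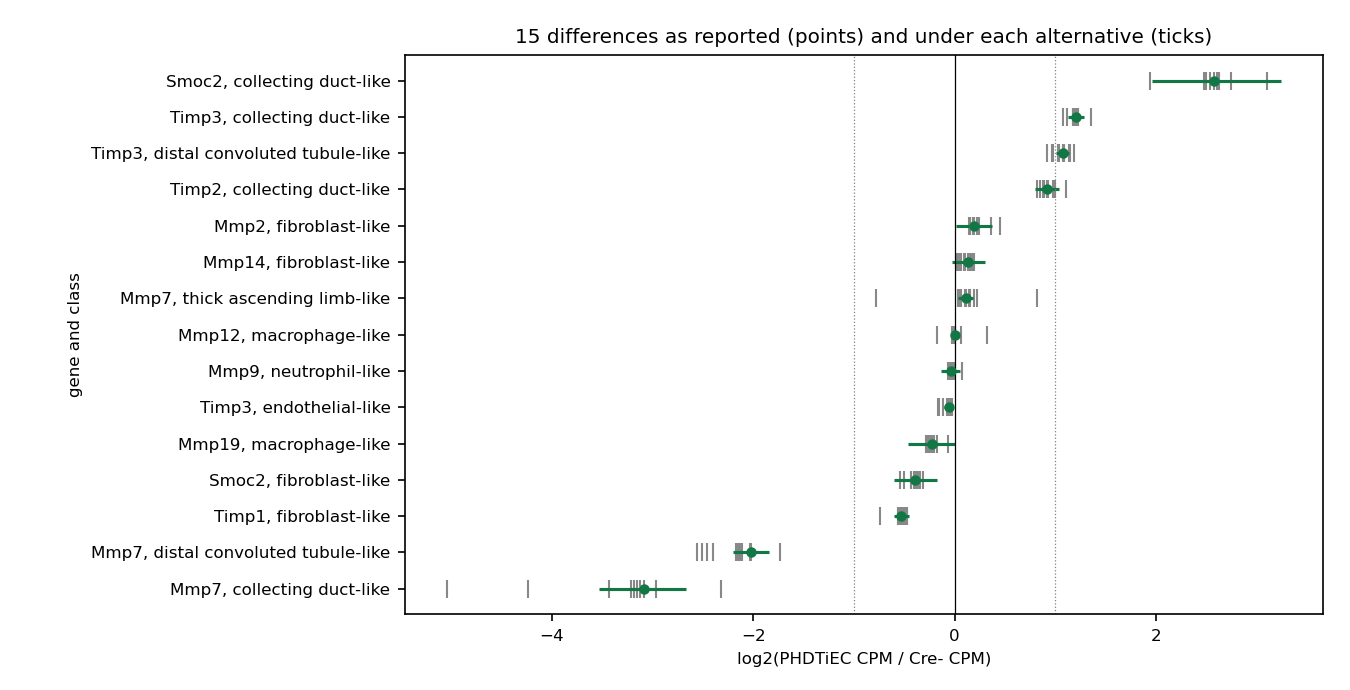
Log2 ratio of CPM in the library labelled PHDTiEC over CPM in the Cre- library (x axis) for 15 gene and class pairs (y axis), as reported (points with 95% counting intervals) and under each alternative way of filtering, classing or counting barcodes (grey ticks; collecting duct-like barcodes have none for 30 principal components). Dotted lines mark 2-fold. Mmp7 in collecting duct-like and distal convoluted tubule-like barcodes stays left of the lower line and Smoc2 in collecting duct-like barcodes right of the upper one, while Mmp7 in thick ascending limb-like barcodes has a tick on each side of 0.

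Free RNA was measured in barcodes under 100 UMIs, where Mmp12 was at 227 and 244 CPM, Timp3 at 349 and 419 CPM, and Smoc2 at 6.01 and 5.92 CPM. This profile was subtracted at the fraction that the least represented foreign marker list allowed, between 0% and 7.99% of a class. Beyond their counting intervals 3 values moved, all for Mmp12. They were -4.05 in endothelial-like (reported -2.04), 2.34 in distal convoluted tubule-like (reported 0.83) and -1.13 in thick ascending limb-like barcodes (reported -0.22).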

How the data were processed

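The authors deposited raw UMI counts per gene and barcode for 2 libraries made with droplet 3' chemistry, with Cell Ranger 4 and mm10 named in the file headers and the submitters' notes, and 136004367 and 146758812 UMIs in all. Barcodes with 500 to 100000 UMIs, at least 200 genes and at most 50% mitochondrial UMIs were kept. Clusters (Seurat 5.3.0, R 4.3.3, 20 principal components, resolution 0.8, the 10 genes and the listed genes left out of 1972 variable genes) were named from marker genes, so class names are rebuilt and may differ from the study's. UMIs were summed per class and library and divided by the class total (CPM). Intervals are exact Poisson or binomial (scipy 1.17.1) at 95% and cover counting error only; with 1 library per genotype no test between genotypes was made. A ratio was counted from 50 UMIs over both libraries, and a difference of 2-fold in either direction. The log2 ratio and its interval were checked on Poisson counts simulated from collecting duct-like sums, which lack any concentration in few barcodes. Scrublet (scanpy 1.11.5) marked 0 barcodes at its automatic threshold, so doublets were not removed and the 6% of barcodes with the highest scores were left out as an alternative chosen after seeing the data.

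The 10 genes and the gene lists were chosen with earlier results of these data known. Named were the Egln genes, the 10 genes in classes with 50 UMIs, the 2 highest and 2 lowest ratios of each list among genes with 100 UMIs, and for each of the 10 genes the 3 genes with the most similar profile. A result for one listed gene that this rule names is not reported here. Alternatives were stricter barcode filters (complexity of at least 0.8, 20% mitochondrial UMIs, 1000 UMIs and 500 genes), classes from marker scores or 30 principal components, other scalings (edgeR 4.0.16 TMM, no mitochondrial and ribosomal genes, mean per barcode), free RNA subtracted, and the top barcode left out.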

Additional observations from a re-analysis of the deposited data

Results flagged for a closer look

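Of the 10 genes, Mmp7, Mmp9 and Mmp12 passed 2-fold in opposite directions in a pair of classes, and the difference between the classes was not tested. Mmp7 had a log2 ratio of 2.07 in fibroblast-like and -3.09 in collecting duct-like barcodes, where single barcodes held 91.7% and 67.6% of the fibroblast-like UMIs and 18.8% and 63.5% of the collecting duct-like UMIs (Cre- first, then the library labelled PHDTiEC). Mmp9 had 2.25 in inner medullary-like and -1.22 in macrophage-like barcodes, with 36.4% and 41.7%, and 27.4% and 20.6%, of the UMIs in single barcodes. Mmp12 had 2.22 in pericyte-like and -2.04 in endothelial-like barcodes, with 73.0% of the pericyte-like UMIs of the library labelled PHDTiEC and 91.1% of the endothelial-like UMIs of the Cre- library in 1 barcode each.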

How the results depend on the processing

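Over 69 gene and class pairs and 744 recomputed values, 630 stayed within the counting interval of the reported value, 99 moved beyond it and 15 changed sign where the reported interval did not include 0; sign changes of values whose interval included 0 are among the first 2 counts. With classes from marker scores, directions changed for Mmp12 in endothelial-like (0.41), injured proximal tubule-like (-0.079) and distal convoluted tubule-like (-1.08), Mmp9 in macrophage-like (0.072), Timp1 in injured proximal tubule-like (0.12) and collecting duct-like (-0.32) and Mmp7 in thick ascending limb-like barcodes (-0.78). With the highest doublet scores left out they changed for Mmp7 (-4.36) and Mmp12 (-0.16) in fibroblast-like, Mmp12 in injured proximal tubule-like (-1.74) and Timp1 in collecting duct-like barcodes (-0.40). Mmp12 in distal convoluted tubule-like barcodes changed with 30 principal components (-0.48), Mmp9 in fibroblast-like barcodes with the mean per barcode (-0.38) and without the top barcode (-0.13), and Mmp12 in endothelial-like barcodes without the top barcode (0.98). The cause was not tested.

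Other values that moved were, by marker score, Timp1 fibroblast-like -0.74, Mmp12 macrophage-like -0.17, Mmp9 neutrophil-like 0.073, Mmp7 -1.73 and Timp3 1.14 in distal convoluted tubule-like, and Mmp7 -2.32, Timp2 1.11, Timp3 1.07 and Smoc2 1.94 in collecting duct-like barcodes. With 30 principal components Mmp12 was at 0.069 in macrophage-like and Mmp7 at 0.22 in thick ascending limb-like and -2.51 in distal convoluted tubule-like barcodes. By the mean per barcode the values were Mmp2 fibroblast-like 0.45, Timp3 endothelial-like -0.17, Mmp12 macrophage-like 0.32, Mmp7 0.82 in thick ascending limb-like and -2.56 in distal convoluted tubule-like, and Timp3 0.91 in distal convoluted tubule-like and 1.35 in collecting duct-like barcodes. Without mitochondrial and ribosomal genes Timp3 was at -0.11 in endothelial-like, 0.97 in distal convoluted tubule-like and 1.11 in collecting duct-like and Mmp12 at -0.030 in macrophage-like barcodes, and with TMM Mmp12 was at -0.024 and Timp3 at 0.98 in macrophage-like and distal convoluted tubule-like barcodes, in that order. With the highest doublet scores left out Timp3 was at -0.16 in endothelial-like and 1.18 in distal convoluted tubule-like, and Mmp7 at 0.20 in thick ascending limb-like, -2.45 in distal convoluted tubule-like and -5.04 in collecting duct-like barcodes. Without the top barcode Mmp7 was at -2.39 and Timp3 at 1.15 in distal convoluted tubule-like, and Mmp7 at -4.24 in collecting duct-like barcodes. At a fold of 1.5 the 13 higher pairs became 26, and by marker score the 8 lower pairs became 4. The intercalated-like class with collecting duct markers has no counterpart by marker score. With 30 principal components no cluster drew more barcodes from the collecting duct-like class than from any other, so its 7 measured genes have no value under that setting, and Timp3 in macrophage-like barcodes has none after subtraction of free RNA. Scrublet at its automatic threshold left no barcode to remove. No paired analysis was possible because each genotype has 1 library. Depth limits Smoc2 in collecting duct-like barcodes after thinning.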
